A study of Mus musculus with 4 samples.

Results

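The genes described here encode the receptor chains of IFNγ (Ifngr1, Ifngr2) and of type I interferons (Ifnar1, Ifnar2), the transducer STAT2 and the interferon regulatory factors IRF1, IRF7, IRF8 and IRF9. They were chosen by name, with earlier results of these data known. All 9 were found among the 33696 gene features of the 4 deposited matrices. They were followed by cell class, brain region and library.

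Interferons signal across the cell membrane. IFNγ binds a receptor built of IFNGR1 and IFNGR2, and its signal ends in a STAT dimer that binds GAS elements in the promoters of genes such as Irf1. Type I interferons bind IFNAR1 and IFNAR2, and their signal ends in a complex of a STAT heterodimer that contains STAT2 and of IRF9, which binds ISRE elements. Microglia and other brain macrophages carry both receptors, and IRF8 is a transcription factor that their development requires.

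Nuclei came from the brains of mice with a photothrombotic (PT) injury, a focal cortical lesion made by illuminating a light-sensitive dye, at 21 days post-injury (dpi). Mice of genotype WT, called control, were set against Col1a2(creER); Cxcl12(flox) mice, called Cxcl12-cKO, in which an inducible Cre recombinase driven by the fibroblast promoter Col1a2 acts on a floxed Cxcl12, the gene of a chemokine that attracts lymphocytes. In each genotype, tissue of a male and a female mouse was combined, and tagged nuclei of lesion and parenchyma were mixed at 75% and 25% and sorted by DAPI into 1 gene expression library. The 2 tag libraries hold no expression values and were used for the region of each nucleus only. With 1 library per genotype, no difference between genotypes could be tested, and nuclei of a library are not replicates. Nuclei were assigned to the female or the male mouse by sex-linked UMIs, so a value for females or males is that of 1 mouse per genotype from the shared library, over the nuclei that could be assigned.

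The matrices held 23489 barcodes, 3216 to 8608 per region and library with 31995274 to 62749811 unique molecular identifiers (UMIs), and 21743 nuclei were kept. Median UMIs per nucleus were 2962 and 2975 in the lesion and 15915 and 16648 in the parenchyma. Cxcl12, the targeted gene, stood in lesional fibroblast-like nuclei at 106 (95% interval 101 to 111) CPM, UMIs scaled to the total of the class, in the library labelled control and at 216 (208 to 223) in the library labelled Cxcl12-cKO. This goes against the label, in females (101 and 266 CPM) as in males (108 and 188), and the sources used here do not give the deleted part of Cxcl12. Every direction below is therefore that of the library labelled so.

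The promoters of the members hold the elements named above in part. All 9 members were found among the RefSeq promoters (GRCm38.p6, 250 bases before to 50 after the start site). A GAS motif, TTCNNNGAA on either strand, was found in 8.30% of all 32851 promoters, and an ISRE motif, a pair of GAAA runs set 2 bases apart on either strand, in 3.44%. Ifnar1, Ifnar2, Irf1 and Irf8 held a GAS match and Stat2 an ISRE match, which is a description of letters and not of binding. The shares are counted per promoter, whereas Irf1, Irf8 and Irf9 have 2 promoters each. The matches of Irf1 and Irf8 lay in the first listed promoter, and their second held neither motif. The matches of Irf1, Irf8 and Stat2 are given with 20 bases on each side, because the levels of these members carry most of the results. Capitals mark the match, and each sequence is the plus strand of GRCm38.p6.

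Irf1, GAS, chr11:53769904-53769952: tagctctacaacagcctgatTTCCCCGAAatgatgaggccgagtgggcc
Irf8, GAS, chr8:120736167-120736215: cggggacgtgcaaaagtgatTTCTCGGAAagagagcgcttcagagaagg
Stat2, ISRE on the minus strand, chr10:128270256-128270305: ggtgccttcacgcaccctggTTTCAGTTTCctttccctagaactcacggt

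The first base of the match lay 90 bases before the start site of that promoter of Irf1, 171 before that of Irf8 and 222 before that of Stat2. Irf8 held a further GAS match 153 bases before the same start. The promoters of Ifngr1, Ifngr2, Irf7 and Irf9 held neither run of letters in this window.

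Levels are given as CPM, the summed UMIs of a gene scaled to all UMIs of the class, in the library labelled control and then in the library labelled Cxcl12-cKO. Intervals are exact Poisson 95% intervals for levels and exact binomial 95% intervals for log2 ratios, and they cover counting error only. Classes are clusters named by their markers, and some also held markers of other classes. In lesional T cell-like nuclei the summed fibroblast markers stood at 1633 and 659 CPM, against 4122 and 3609 in fibroblast-like nuclei. They stood at 1248 and 902 CPM in monocyte or dendritic-like and at 2121 and 1247 in endothelial-like nuclei. The part of such UMIs in the levels was not tested. Levels of different members are not compared with each other, since UMIs near the 3′ end capture genes unequally.

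In the lesion, all 9 members stood higher in myeloid-like than in neuron-like nuclei. Irf8, whose product directs the development of microglia, monocytes and dendritic cells, was the most restricted. It stood at 362 and 333 CPM in monocyte or dendritic-like nuclei and at 283 (267 to 301) and 250 (237 to 264) in myeloid-like nuclei. The next class in order, T cell-like, lay at 36.2 and 70.2 CPM from 9 and 13 UMIs. Fibroblast-like nuclei held 3.30 (2.43 to 4.39) and 5.40 (4.28 to 6.73) CPM, and parenchymal excitatory-neuron-like nuclei 1.10 and 1.00. An Irf8 UMI was found in 43.8% and 42.4% of lesional myeloid-like nuclei, or in 24.1% and 21.7% after every nucleus was thinned to 1000 UMIs. In lesional fibroblast-like nuclei the shares were 0.967% and 1.82%, and 0.248% and 0.655% after thinning. The thinned comparison left out 97 and 118 myeloid-like nuclei and 106 and 97 fibroblast-like nuclei with fewer UMIs.

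**Figure D1:**
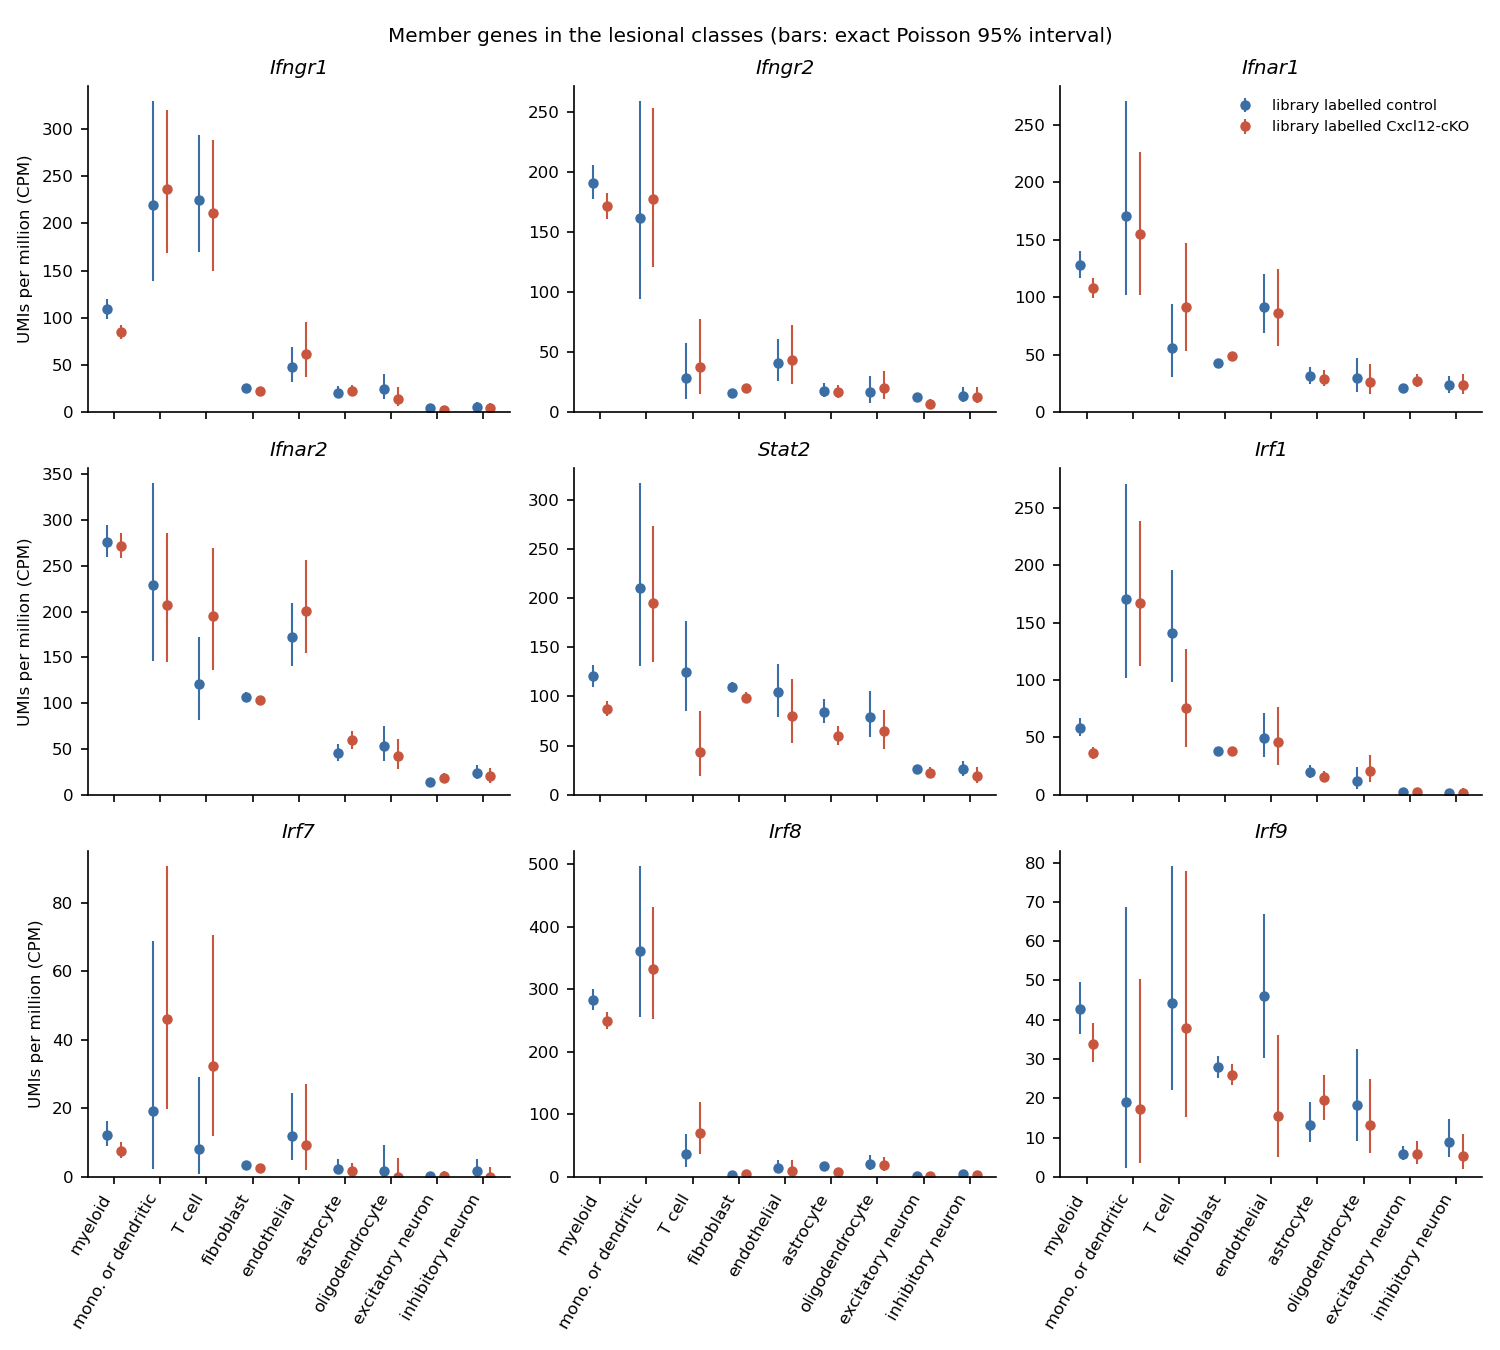
Level of each of the 9 genes in CPM on a linear axis from 0 in the lesional cell classes, with a point for each library and exact Poisson 95% intervals as bars. Irf8 separates myeloid-like (283 and 250 CPM) from fibroblast-like nuclei (3.30 and 5.40), while Stat2 lies at 121 and 87.5 CPM in the first and 110 and 98.6 in the second.

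The IFNγ receptor chains differed in where they were high. Ifngr1, the ligand-binding chain, was highest in monocyte or dendritic-like nuclei (219 and 236 CPM) and in T cell-like nuclei (225 and 211), whose intervals overlapped. Myeloid-like nuclei followed at 109 (99.0 to 120) and 84.8 (77.4 to 92.8) CPM, and fibroblast-like nuclei at 25.6 and 22.8. Ifngr2, the signalling chain, was highest in myeloid-like nuclei at 191 (178 to 206) and 172 (161 to 183) CPM, next to monocyte or dendritic-like nuclei at 162 and 178. T cell-like nuclei, at the top for Ifngr1, held 28.2 and 37.8 CPM of Ifngr2 from 7 UMIs in each library, overlapping endothelial-like nuclei at 40.9 and 43.2. In fibroblast-like nuclei Ifngr2 stood at 16.4 and 20.3 CPM, and in neurons both chains were at or below 13.8 CPM.

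The type I receptor chains were spread more widely. Ifnar2 ran from 276 (260 to 294) and 272 (259 to 286) CPM in myeloid-like nuclei through monocyte or dendritic-like (229 and 207), endothelial-like (172 and 201), T cell-like (121 and 195) and fibroblast-like nuclei (107 and 103), and no neighbours in that order were apart in both libraries. Below a gap came astrocyte-like nuclei at 45.2 and 59.3 CPM, and neurons lay between 13.1 and 24.0. Ifnar1 followed the same outline, from 171 and 155 CPM in monocyte or dendritic-like and 128 and 108 in myeloid-like nuclei to 43.2 and 48.7 in fibroblast-like nuclei and 15.0 to 27.0 in neurons.

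Stat2 was spread over all non-neuronal classes. Its level was 110 (104 to 115) and 98.6 (93.6 to 104) CPM in fibroblast-like nuclei and 121 (110 to 132) and 87.5 (79.9 to 95.6) in myeloid-like nuclei, so that the order of the 2 classes turned between libraries. Monocyte or dendritic-like nuclei lay above them at 210 and 195 CPM, and neurons held 19.0 to 26.3.

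Irf1, a transcription factor and an early target of IFNγ, was highest in monocyte or dendritic-like (171 and 167 CPM) and T cell-like nuclei (141 and 75.6). Myeloid-like nuclei (58.3 and 36.1) lay above fibroblast-like nuclei (37.8 and 37.7) beyond their intervals in the library labelled control and level with them in the other, and endothelial-like nuclei (49.4 and 46.3) overlapped both. Neurons were at or below 2.54 CPM. Irf7, an amplifier of type I interferon production, was the scarcest member with 265 UMIs among all nuclei kept, 12.2 and 7.68 CPM in myeloid-like and 3.37 and 2.60 in fibroblast-like nuclei. Irf9 ranged from 44.2 and 37.8 CPM in T cell-like, 42.7 and 33.9 in myeloid-like and 28.0 and 26.0 in fibroblast-like nuclei to 5.81 and 5.72 in lesional excitatory-neuron-like nuclei. The endothelial-like cluster, at 46.0 and 15.4 CPM of Irf9 from 27 and 5 UMIs, also had the mural genes Myh11 and Rgs5 among its 10 leading genes.

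The first comparison asked how the receptors and factors stood in lesional myeloid-like nuclei of the libraries labelled control (1597 nuclei) and Cxcl12-cKO (2027 nuclei). The library labelled Cxcl12-cKO had the lower level of all 9 members, and the median log2 ratio over the members was -0.33 beside -0.02 over the 11431 genes with at least 50 UMIs. Summed over the 9 members, the level was 1223 and 1052 CPM, 1318 and 1053 in females and 1155 and 1022 in males. Nuclei assigned to the female mouse numbered 621 and 1032, and to the male mouse 490 and 466. A difference of at least 1.5-fold (0.58 on the log2 scale) was called. Irf1 and Irf7, 2 of the 9 members, were lower by that fold, beside 3.67% of all genes tested. The receptors were not among them.

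Irf1 stood at 58.3 (50.9 to 66.4) CPM in the library labelled control and at 36.1 (31.3 to 41.4) in the library labelled Cxcl12-cKO, from 224 and 202 UMIs. Split by mouse, the levels were 73.6 and 36.7 CPM in females and 34.8 and 27.6 in males. The control female mouse thus held the highest level, and the other 3 mice lay between 27.6 and 36.7 CPM. The log2 ratio was -0.69 (-0.97 to -0.41), with -1.0 (-1.40 to -0.61) in females and -0.33 (-1.0 to 0.32) in males. Without the female mice the difference was thus below the fold and its interval reached 0.

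Stat2 showed the same arrangement below the fold. It stood at 168 and 101 CPM in females and 80.4 and 68.3 in males, again with the control female mouse above the other 3. The log2 ratio was -0.46 (-0.65 to -0.28) over all nuclei, -0.74 (-0.99 to -0.50) in females and -0.24 (-0.65 to 0.18) in males. Irf7 rested on 47 and 43 UMIs and 12.2 and 7.68 CPM, a log2 ratio of -0.67 (-1.30 to -0.04). In females it stood at 20.6 and 7.13 CPM (-1.52, -2.42 to -0.68), whereas in males it held 3 and 8 UMIs and the ratio pointed the other way (1.19, -0.73 to 3.87). Irf7 was thus lower in the female pair, the male pair held few UMIs, and whether the pairs differ was not tested.

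Among the receptors, Ifngr1 differed most and did so in both pairs of mice. Its levels were 98.1 and 78.1 CPM in females and 123 and 89.3 in males, and its log2 ratio was -0.36 (-0.56 to -0.17) over all nuclei, -0.33 in females and -0.46 (-0.81 to -0.11) in males. With every nucleus thinned to 1000 UMIs the ratio was -0.09 (-0.40 to 0.22). Ifngr2 differed by -0.16 (-0.30 to -0.02) and Ifnar1 by -0.25 (-0.43 to -0.08). Ifnar2 stood at 276 and 272 CPM with a ratio of -0.02 (-0.14 to 0.09), an interval that leaves out any difference near the fold.

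Irf8, the myeloid factor, differed by -0.18 (-0.29 to -0.06), from 299 to 234 CPM in females and from 274 to 261 in males. When nuclei were classed by their own markers and not by cluster, its ratio was -0.05 (-0.17 to 0.08). Irf9, the partner of STAT2, stood at 48.4 and 39.2 CPM in females and 41.0 and 28.3 in males, with a ratio of -0.33 (-0.64 to -0.02).

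Other transcripts moved with these differences. The summed level of the 6 myeloid markers, all detected in both libraries, was 2735 and 2120 CPM in myeloid-like nuclei, 3235 and 2192 in females and 2297 and 1968 in males. The 6 fibroblast markers stood at 711 and 360 CPM in the same nuclei and T cell markers held 76 and 67 UMIs. UMIs of both sexes, a sign of doublets or free RNA, were found in 8.89% and 9.32% of them. The part of these in the results was not tested.

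**Figure D2:**
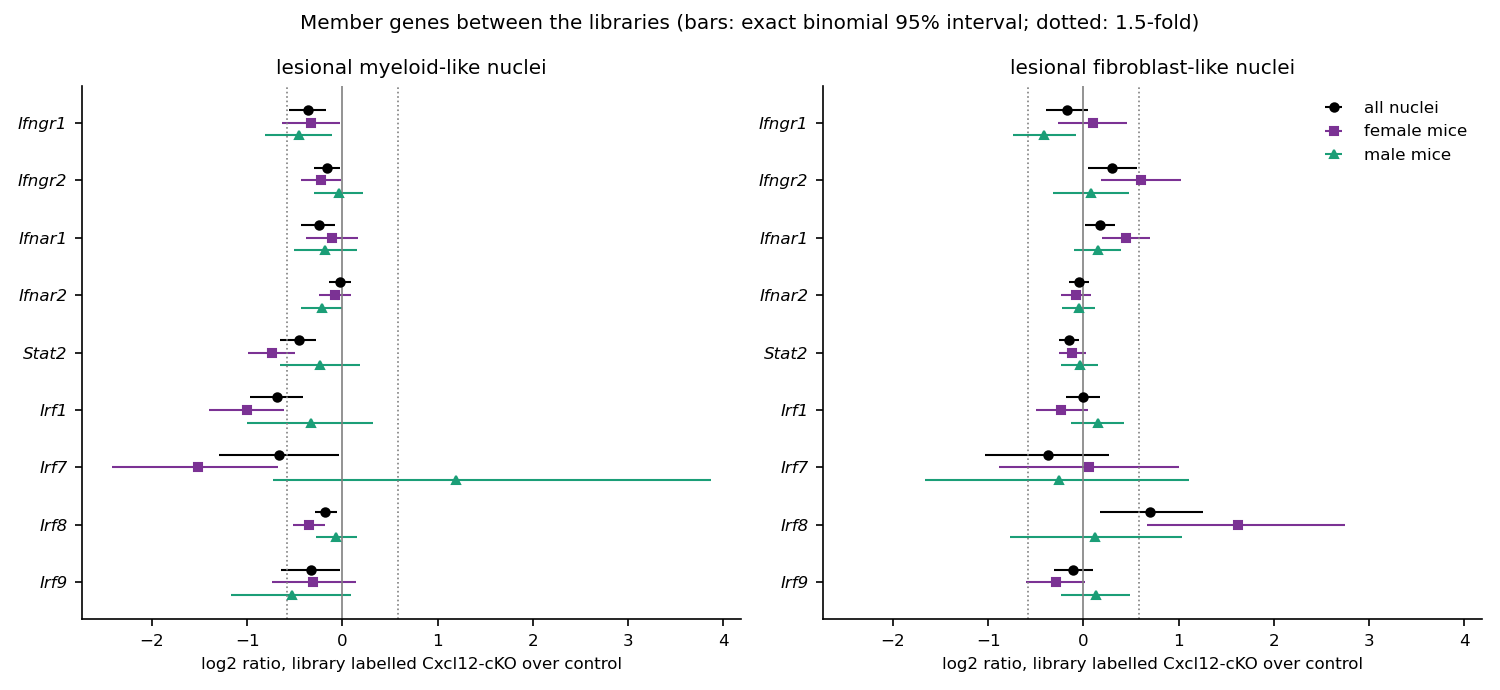
Log2 ratio between the libraries, labelled Cxcl12-cKO over labelled control, for each of the 9 genes in lesional myeloid-like and fibroblast-like nuclei, over all nuclei and for female and male mice apart, with exact binomial 95% intervals as bars. In myeloid-like nuclei all 9 ratios over all nuclei lie below 0, and those of Irf1 (-0.69) and Irf7 (-0.67) lie past the 1.5-fold line.

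Ratios are given by myeloid-like subcluster, not split by mouse, and differences between subclusters were not tested. Homeostatic microglia-like nuclei (817 and 951) held the largest number, and there Stat2 stood at 138 (121 to 156) and 88.4 (76.9 to 101) CPM, a log2 ratio of -0.64 (-0.91 to -0.37). Irf7 stood at 12.4 and 3.34 CPM in them from 23 and 8 UMIs, and Irf8 at 368 and 306 (-0.27, -0.42 to -0.11). Irf1 stood at 47.6 and 39.2 CPM in them (-0.28, -0.71 to 0.16), an interval that holds both 0 and the fold.

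An unnamed subcluster with Anxa1 and Il7r among its leading genes (465 and 777 nuclei) held Irf1 at 50.7 and 29.0 CPM (-0.81, -1.33 to -0.28) and Ifngr1 at 104 and 69.7 (-0.58, -0.93 to -0.23). Irf8 stood in it at 223 and 218 CPM (-0.03, -0.25 to 0.19). Border-associated macrophage-like nuclei (133 and 92) had too few UMIs for any member's interval to leave out 0, with Irf1 at 103 and 62.3 CPM and Irf8 at 206 and 130.

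The last subcluster (182 and 207 nuclei) was led by genes of fibroblasts, among them Timp3 and Ebf1, and 16.2% of its nuclei held UMIs of both sexes. Irf1 was at 87.1 and 41.6 CPM in it (-1.06, -1.79 to -0.37), whereas Stat2 was at 76.2 and 98.9 (0.37, -0.20 to 0.97). It held 18 of the 47 and 23 of the 43 Irf7 UMIs of the class, at 32.7 and 33.0 CPM. With this subcluster left out, an alternative added after the data had been seen, the median over the members was -0.31 and 2 members were lower by the fold.

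**Figure D3:**
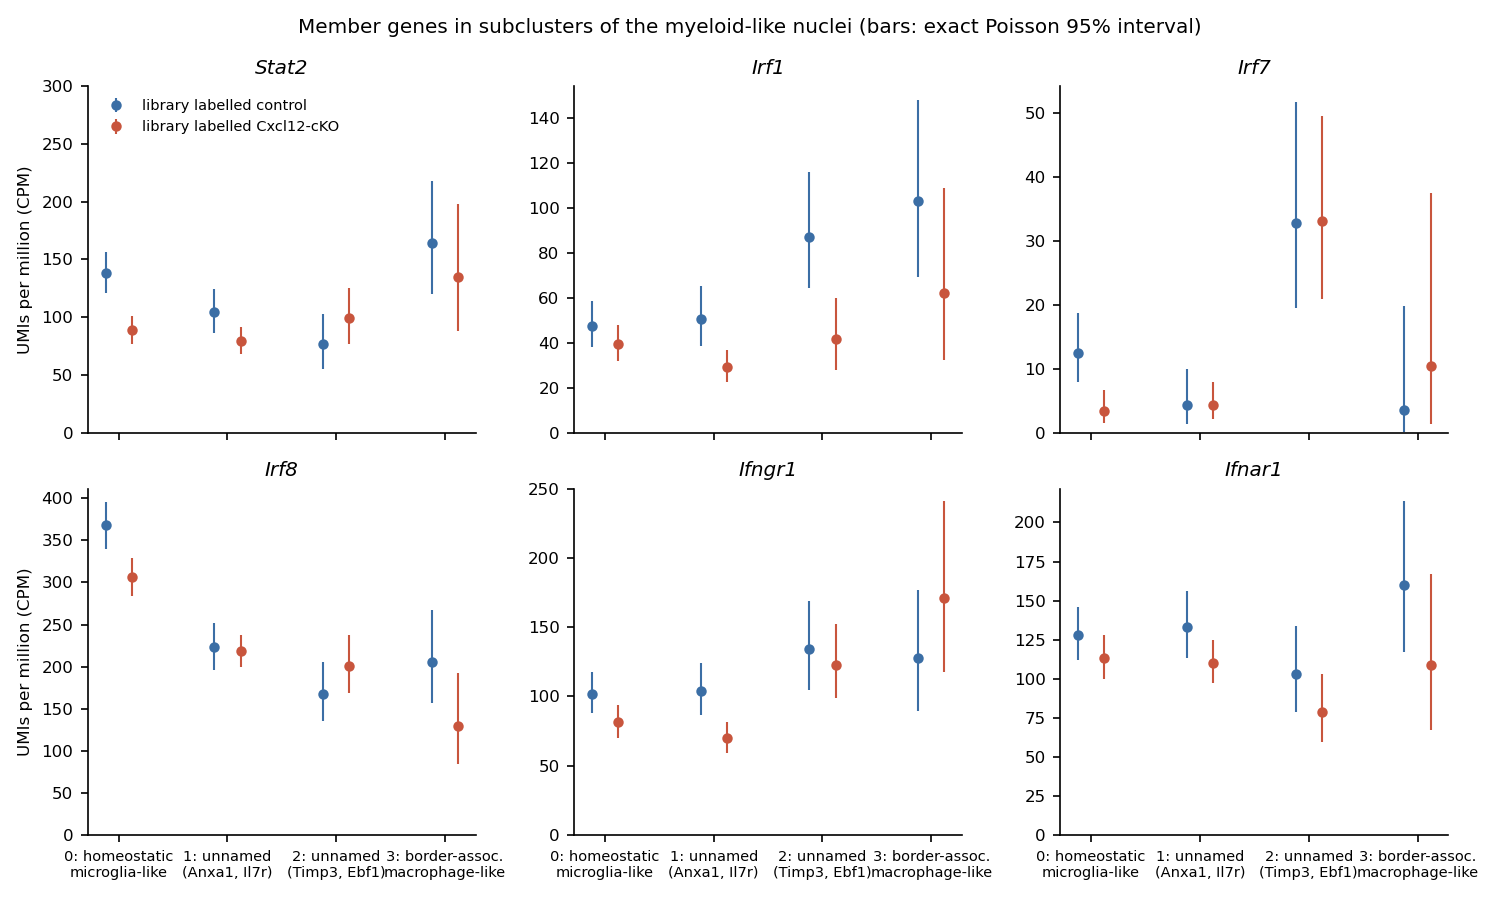
Level in CPM of Stat2, Irf1, Irf7, Irf8, Ifngr1 and Ifnar1 in each lesional myeloid-like subcluster, with a point for each library and exact Poisson 95% intervals as bars. Stat2 is apart in homeostatic microglia-like nuclei (138 and 88.4 CPM), and Irf7 is highest in the subcluster led by fibroblast genes (32.7 and 33.0 CPM).

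In lesional fibroblast-like nuclei (4137 and 4068), the cells in which Col1a2 is expressed, the median log2 ratio over the members was -0.05 beside 0.00 over 14297 genes. None of the 9 members was lower by 1.5-fold, beside 2.55% of all genes, and 1, Irf8, was higher by it, beside 3.27%. Whether fibroblast-like and myeloid-like nuclei differ in this could not be tested.

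Irf1 stood at 37.8 and 37.7 CPM, a log2 ratio of 0.00 (-0.18 to 0.17). Its levels in females were 44.0 and 37.6 CPM and in males 34.4 and 38.2, so that the pairs pointed in opposite directions. Stat2 stood at 143 and 132 CPM in females (-0.12, -0.26 to 0.03) and 79.5 and 77.3 in males (-0.04, -0.23 to 0.15). Over all nuclei its ratio was -0.15 (-0.26 to -0.05), whereas the intervals of both pairs held 0. In either library, then, the female mouse held more Stat2 than the male mouse. Nuclei assigned to the female mouse numbered 1715 and 1432, and to the male mouse 1534 and 1587. The part of this mix in the ratio over all nuclei was not tested.

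Ifngr2 was at 16.4 (14.4 to 18.7) and 20.3 (18.1 to 22.7) CPM, with a ratio of 0.30 (0.05 to 0.56), split into 0.60 (0.19 to 1.02) for females and 0.08 (-0.32 to 0.48) for males. Ifnar1 had a ratio of 0.17 (0.02 to 0.33) and Ifnar2 of -0.05 (-0.15 to 0.06). Ifngr1 (-0.17), Irf7 (-0.37) and Irf9 (-0.11) had intervals that held 0.

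Irf8, at 47 and 79 UMIs in these nuclei, had a ratio of 0.70 (0.17 to 1.26). It was at 2.04 and 6.43 CPM in females and at 3.70 and 4.04 in males. Myeloid markers were at 37.3 and 44.2 CPM in the same fibroblast-like nuclei, with 6 of 6 markers detected in each library. Per 100 UMIs of those markers, fibroblast-like nuclei held 8.85 and 12.2 Irf8 UMIs, against 10.4 and 11.8 in the myeloid-like class. An Irf8 UMI was found in 0.967% (0.692% to 1.31%) and 1.82% (1.43% to 2.28%) of fibroblast-like nuclei, of median depth 3074 and 3106 UMIs, and in 2.78% and 2.54% of lesional excitatory-neuron-like nuclei, of median depth 13917 and 12715. After thinning to 1000 UMIs the shares were 0.248% and 0.655% in fibroblast-like and 0.198% and 0.427% in those neurons, with overlapping intervals in each library. Whether these UMIs come from free RNA of myeloid nuclei was not tested.

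Within the fibroblast-like class Stat2 differed in direction between subclusters. In the larger leptomeningeal-like subcluster (1394 and 1250 nuclei) it stood at 123 (113 to 135) and 89.7 (80.6 to 99.6) CPM, a log2 ratio of -0.46 (-0.66 to -0.26). In the late inner-like subcluster (894 and 1255 nuclei) it stood at 67.7 (58.7 to 77.6) and 95.1 (86.8 to 104), a ratio of 0.49 (0.25 to 0.73). Counting intervals of the 2 ratios did not overlap, but with 1 library per genotype the difference was not tested. Ratios of subclusters were not split by mouse.

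The dural-like subcluster lay between them, with Stat2 at 123 and 114 CPM (-0.11). Ifnar2 was divided otherwise, at 122 and 97.6 CPM in dural-like (-0.32, -0.50 to -0.15), at 70.6 and 87.2 in late inner-like (0.30, 0.07 to 0.55) and at 88.5 and 99.7 in the larger leptomeningeal-like nuclei (0.17, -0.04 to 0.38). Irf1 had intervals that held 0 in all 4 fibroblast-like subclusters. At a finer clustering a cluster led by Slc47a2 and Npr3 lost its name, which left 2632 and 2928 fibroblast-like nuclei and turned the Ifnar2 ratio from -0.05 to 0.14 (0.00 to 0.27).

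In lesional astrocyte-like nuclei (528 and 517), 8 members had at least 50 UMIs, with a median log2 ratio of -0.09 beside -0.03 over 9565 genes. Stat2 stood at 94.3 and 55.7 CPM in females (-0.76, -1.26 to -0.27) and 72.3 and 56.7 in males (-0.35, -0.99 to 0.30). Both control mice lay above both Cxcl12-cKO mice, but the interval of the male pair held 0. The ratio of Stat2 over all nuclei was -0.51 (-0.83 to -0.20), below the fold. Ifnar2 lay the other way, at 45.2 and 59.3 CPM (0.39, 0.02 to 0.77).

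Irf8 alone was lower by the fold in astrocyte-like nuclei, 1 of 8 members beside 5.89% of all genes, at 18.2 and 8.41 CPM from 41 and 21 UMIs. Myeloid markers stood at 142 and 107 CPM in these nuclei and fibroblast markers at 856 and 334, and their part in the result was not tested. Irf8 stood at 12.8 and 7.89 UMIs per 100 UMIs of the myeloid markers. An Irf8 UMI was found in 4.55% and 3.29% of astrocyte-like nuclei, and in 1.15% and 0.777% after thinning.

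T cell-like nuclei were few (122 and 104), and only Ifngr1 and Ifnar2 reached 50 UMIs. Ifngr1 stood at 225 and 211 CPM (-0.09, -0.72 to 0.52) and Ifnar2 at 121 and 195 (0.68, -0.05 to 1.44). Ifnar2, 1 of these 2 members, was thus higher by the fold, beside 7.66% of 2103 genes, with an interval that held 0. Stat2 was counted in 31 and 8 UMIs, 125 and 43.2 CPM, and Irf1 in 35 and 14 UMIs, 141 and 75.6 CPM. Of the 31 Stat2 UMIs, 20 came from 22 nuclei of a subcluster in which 38.7% of nuclei held UMIs of both sexes. In the other subcluster (100 and 95 nuclei) Stat2 had 11 and 7 UMIs. In monocyte or dendritic-like nuclei (51 and 76) the ratios of Ifngr1, Ifnar2, Stat2 and Irf8 over all nuclei had intervals that held 0. Split by mouse, Irf8 stood there at 394 and 189 CPM in females (-1.06, -2.12 to -0.03). In males it stood at 352 and 578 CPM (0.63, -0.60 to 2.29), from 6 and 26 UMIs.

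In neurons the members were a small share of all UMIs, in nuclei of greater depth. A Stat2 UMI was found in 34.6% and 36.0% of parenchymal excitatory-neuron-like nuclei, of median depth 17478 and 18407 UMIs. In lesional myeloid-like nuclei, of median depth 2048 and 2264, the shares were 20.9% and 19.6%. For Irf1 the order was the other way, at 3.74% and 3.94% against 9.96% and 8.83%. Parenchymal excitatory-neuron-like nuclei (2193 and 2081) gave 8 members with at least 50 UMIs and a median log2 ratio of -0.02. None of the 8 was lower by the fold, beside 1.30% of 16671 genes, and none was higher, beside 2.38%. Irf7, with fewer than 50 UMIs, was counted in 3 and 15 UMIs, a ratio of 2.18 (0.53 to 4.78). It held 2 and 7 UMIs in females and 1 and 7 in males. Stat2 stood at 26.3 and 26.0 CPM from 1046 and 1013 UMIs (-0.01, -0.14 to 0.11), Ifnar1 at 18.5 and 18.2, and Ifnar2 at 14.4 and 14.3. The intervals of all 3 ratios exclude a difference of 1.5-fold. Ifngr2 differed by -0.23 (-0.43 to -0.04), at 12.1 and 9.89 CPM in females and 12.2 and 11.4 in males.

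Parenchymal inhibitory-neuron-like nuclei (498 and 542) had 6 members with enough UMIs, a median of 0.00 and 0 members lower by the fold, beside 1.86% of 12639 genes. In lesional excitatory-neuron-like nuclei (504 and 236), 1 of 5 members was lower by it, beside 4.22% of 10411 genes. That member was Ifngr2, at 12.5 and 7.31 CPM from 95 and 23 UMIs (-0.76, -1.50 to -0.11), with ratios of -0.65 (-1.68 to 0.24) in females and -1.07 (-3.62 to 0.39) in males. Ifngr2 was thus lower in the library labelled Cxcl12-cKO in excitatory neurons of both regions, and in the lesion by a value that counting error bounds only loosely.

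Lesion and parenchyma could be set side by side within a library. In excitatory-neuron-like nuclei the median log2 ratio of lesion over parenchyma was 0.02 over 8 members in the library labelled control and 0.09 over 7 in the library labelled Cxcl12-cKO, beside -0.13 and -0.12 over all genes tested. In the library labelled control 1 of 8 members was higher in the lesion by the fold, beside 4.24% of all genes, and 0 of 7 in the other library, beside 6.12%.

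The member past the fold was Irf8, in the library labelled control, at 1.10 CPM in parenchyma and 2.24 in lesion (1.05, 0.12 to 1.86), from 44 and 17 UMIs. Myeloid markers in the same nuclei stood at 11.5 and 19.7 CPM, and Irf8 at 9.63 and 11.4 UMIs per 100 UMIs of the markers. In myeloid-like nuclei of that library the latter value was 2.46 in the parenchyma and 10.4 in the lesion. The part of the markers in the result was not tested. Ifnar1 stood at 18.2 CPM in parenchyma and 27.0 in lesion under the label Cxcl12-cKO (0.58, 0.23 to 0.90), just short of the fold, and at 18.5 and 21.1 in the library labelled control. Ifngr1 was as close to it in the library labelled control, at 3.04 and 4.49 CPM (0.58, -0.03 to 1.12).

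**Figure D4:**
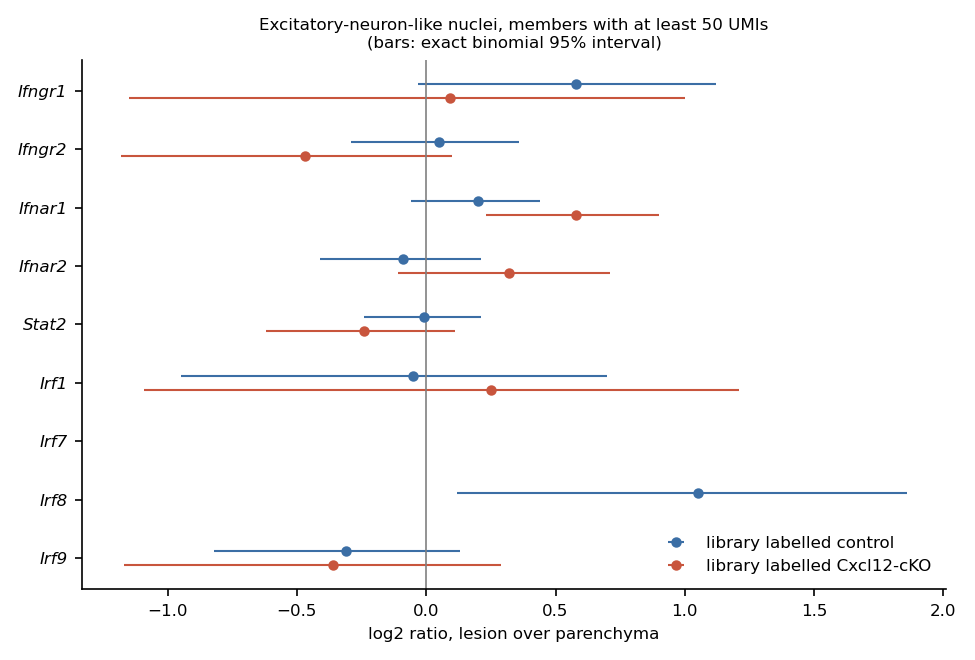
Log2 ratio of lesion over parenchyma for the members in excitatory-neuron-like nuclei of each library, with exact binomial 95% intervals as bars. Members under 50 UMIs are left out, and the intervals hold 0 except for Irf8 under the label control (1.05) and Ifnar1 under the label Cxcl12-cKO (0.58).

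The parenchyma held few myeloid-like nuclei, 32 and 47. Irf8 stood there at 105 (48.0 to 199) and 161 (91.8 to 261) CPM from 9 and 16 UMIs, below the lesional 283 and 250, with log2 ratios of lesion over parenchyma of 1.35 (0.50 to 2.56) and 0.60 (-0.06 to 1.45). Ifnar2 was higher in the lesion in both libraries, by 0.92 (0.17 to 1.94) and 0.81 (0.13 to 1.70). Ifngr1 pointed the other way, at 152 CPM in parenchyma and 109 in lesion and at 251 and 84.8, a ratio of -1.59 (-2.14 to -0.92) in the library labelled Cxcl12-cKO. By the fold, 4 and 2 of 8 members were higher in the lesion, beside 33.0% and 25.9% of the genes tested there. Myeloid markers stood at 4273 and 4636 CPM in the parenchymal nuclei, above the lesional 2735 and 2120, and their part in the result was not tested.

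In astrocyte-like nuclei Stat2 stood at 21.1 CPM in parenchyma and 84.6 in lesion of the library labelled control (1.84, 0.62 to 3.89), and at 34.5 and 59.3 in the library labelled Cxcl12-cKO. These parenchymal levels rest on 4 and 9 UMIs.

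The rest of the pathway was read from lists, which were chosen with earlier results of these data known. Counts of listed genes beside the share of all genes are therefore a description and not separate support. The kinases bound to the receptors came first. In lesional myeloid-like nuclei Jak1 stood at 286 and 294 CPM, Jak2 at 109 and 101 and Tyk2 at 54.1 and 46.4, and 0 of 3 passed the fold. Stat3 stood at 265 and 228 CPM, Stat5b at 189 and 179 and Stat6 at 83.7 and 82.7. Of the other IRFs, 0 of 3 with enough UMIs passed it either, with Irf2 at 471 and 450 CPM, Irf5 at 84.8 and 77.9 and Irf3 at 26.0 and 34.6 (0.41, 0.06 to 0.78).

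Targets of both interferon types were mostly lower. Of 26 type I interferon targets with enough UMIs in lesional myeloid-like nuclei, 6 were lower by the fold and 0 higher, beside 3.67% and 2.76% of all genes, with a median log2 ratio of -0.32. Their summed level was 1767 and 1378 CPM. Isg15, a ubiquitin-like protein, stood at 12.2 and 5.36 CPM (-1.18, -1.90 to -0.50), Rsad2, an antiviral enzyme, at 38.5 and 17.9 (-1.11) and Ifit2, an RNA-binding protein, was counted in 108 and 73 UMIs (-1.10).

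Of 24 IFNγ targets, 15 were lower by the fold and 0 higher, beside the same 3.67% and 2.76%, with a median of -0.89. The summed level was 2345 and 909 CPM in females and 1056 and 818 in males, so that the control female mouse again stood above the other 3. The T-cell chemokine Cxcl9 stood at 20.8 and 1.61 CPM from 80 and 9 UMIs (-3.63, -4.87 to -2.70), and its relative Cxcl10 at 13.8 and 4.47 (-1.61). H2-Eb1, which presents antigen to T cells, stood at 93.6 and 37.5 CPM (-1.32) and Gbp2, a GTPase of host defence, was counted in 47 and 28 UMIs (-1.28).

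In lesional fibroblast-like nuclei 10 of 28 IFNγ targets were lower by the fold, beside 2.55% of all genes. All 28 targets had ratios below 0, with a median of -0.45 beside 0.00 over the 14297 genes tested. Their summed level was 993 and 659 CPM in females (-0.59, -0.65 to -0.53) and 464 and 418 in males (-0.15, -0.23 to -0.07). Cxcl9 (-2.86), H2-Aa (-1.82) and Cxcl10 (-1.77) had the largest differences, at 6.67 and 0.889, 8.08 and 2.26, and 8.71 and 2.53 CPM. Of 29 type I targets, 4 were lower and 1 higher by the fold, beside 2.55% and 3.27% of all genes. Rsad2 stood at 19.0 and 6.70 CPM (-1.50) and Oas1a at 5.27 and 8.75 (0.73). In parenchymal excitatory-neuron-like nuclei 0 of 16 type I and 0 of 7 IFNγ targets passed the fold in either direction, beside 1.30% of all genes lower and 2.38% higher. The summed IFNγ targets stood at 18.9 and 21.1 CPM there (0.16, 0.02 to 0.31) and at 18.7 and 24.4 in parenchymal inhibitory-neuron-like nuclei (0.38, 0.06 to 0.71), higher under the label Cxcl12-cKO in both. The summed type I targets stood at 68.5 and 69.8 CPM (0.03, -0.05 to 0.10) and at 38.6 and 48.1 (0.32, 0.09 to 0.55).

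**Figure D5:**
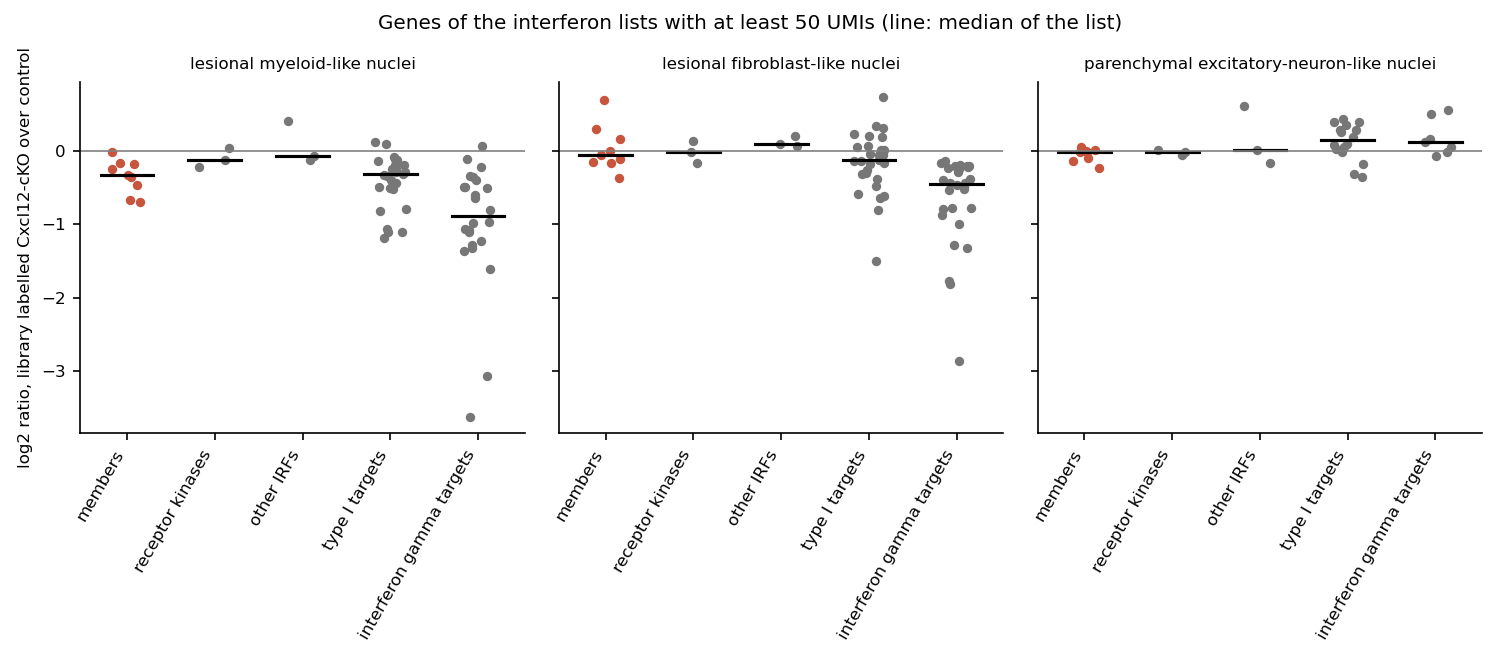
Log2 ratio between the libraries, labelled Cxcl12-cKO over labelled control, for the members and for genes of the pathway lists in lesional myeloid-like, lesional fibroblast-like and parenchymal excitatory-neuron-like nuclei, each point a gene with at least 50 UMIs and each line a median. In the lesional classes the IFNγ targets (medians -0.89 and -0.45) lie lower than the members (-0.33 and -0.05).

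The ligands were at the edge of detection. Ifng was counted in 3 and 2 UMIs over all nuclei kept, of which 1 and 1 lay in T cell-like nuclei, and Ifnk in 4 and 2. The other 8 listed interferon genes had no UMI in 21743 nuclei, which at this depth does not show that they were absent.

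Genes with patterns most like the members were sought over 23 sums of class, region and library with at least 50 nuclei, among 13635 genes, by Pearson's r of log2(CPM + 1). These sums share libraries, so r is a description. Irf8 ran with Havcr2 (0.99), Slamf7, Fgd2 (0.98), Itgax and Il10ra (0.97), which are genes of macrophages and other leukocytes. Ifngr1 was most like Psmb8 (0.99), Ifngr2 like Pld4 (0.96), Ifnar1 like Ehbp1l1 (0.97), Ifnar2 like Tgfb1 (0.98), Stat2 like Cop1 (0.95), Irf1 like Apobec3 (0.98) and Irf7 like Crip1 (0.96), and Ube2d3 (0.93) was among the 5 most like Irf9. Between members, r was highest for Irf1 with Ifngr1 (0.95) and lowest for Irf9 with Irf8 (0.59).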

How the data were processed

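Single-nucleus libraries (Chromium 3′ v3.1, CellPlex tags) were made by the authors from control and Cxcl12-cKO mice, 1 per genotype. The submitters' processing notes name Cell Ranger 9.0.0 and GRCm39. The deposited matrices hold UMI counts per gene and nucleus, not normalized, split by region by the authors from the tags; the sources used here do not say whether intronic reads were counted. UMI counts cover 3′ ends, and members that overlap other genes (Ifnar2, Irf8 and Irf9 on the same strand, Irf1 and Irf7 on the opposite strand, in GENCODE for GRCm38) may have lost or gained reads.

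Barcodes in the outer 2.5% by UMIs or genes, or the top 2.5% by mitochondrial share, were removed (nuclei kept held 758 to 36243 UMIs from 585 to 6417 genes, with a mitochondrial share up to 8.74%). Leiden clustering (scanpy 1.11.5, 3000 variable genes, 30 components, 20 neighbours, resolution 0.25) gave 18 clusters, with the members, the pathway lists, Cxcl12, sex-linked and mitochondrial genes left out (127 genes). Clusters were named by marker lists, and 3 mixed or unlisted ones stayed unnamed. Subclusters used 2000 variable genes. Scrublet marked 3 and 20 barcodes, too few to have worked, so doublets were kept and handled as an alternative. Between libraries 47 barcode sequences were shared, and 0 between regions of a library. Nuclei were assigned to mice by Xist and Y-linked genes.

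UMIs were summed per class, region and library, and 0.5 was added to each sum for log2 ratios. Ratios were tested on simulated data. With 1 library per genotype no p-value was computed, and calls rest on 1.5-fold among genes with at least 50 UMIs. Named genes were the 9 members, listed genes past the fold (at most 4 per list and class), receptor kinases, other IRFs, and the 5 genes most alike to each member; some are not reported here. Stat3, Stat5b and Stat6 were named after their values were seen. Pathway lists held type I targets, IFNγ targets, receptor kinases, other IRFs and ligands. The members and lists were chosen with earlier results of these data known. The code ran in Python 3.11.15 with scikit-learn 1.9.0, leidenalg 0.10.2, pandas 2.3.3, scipy 1.17.1, numpy 2.4.6 and matplotlib 3.10.9.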

Additional observations from a re-analysis of the deposited data

Results flagged for a closer look

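The summed IFNγ targets of lesional astrocyte-like nuclei pointed in opposite directions by sex. Between the libraries labelled control and Cxcl12-cKO, females stood at 717 and 318 CPM (log2 ratio -1.17, -1.37 to -0.98). Males stood at 368 and 578 CPM (log2 ratio 0.65, 0.41 to 0.89). Each sex is 1 mouse per genotype, and the difference was not tested. Gbp5, a GTPase of the list, had ratios of -0.73 in females and 2.40 in males, and Cxcl10 of -5.76 and 3.28. These single-gene ratios have 0.5 added to each sum and no intervals. They rest on 246 and 212 nuclei of the female mice and 139 and 154 of the male mice. The member Stat2 had ratios of -0.76 (-1.26 to -0.27) and -0.35 (-0.99 to 0.30), and Irf1 of -0.55 and 0.01.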

How the results depend on the processing

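No paired analysis was possible because each genotype had 1 library. The median over the members kept its direction in myeloid-like nuclei under all alternatives run, from -0.35 to -0.17, and 103 of 108 values of single members there were below 0. These values reuse the same members and libraries and are not separate support. The count of members lower by 1.5-fold in that class, 2, was 1 with the mean over nuclei of UMIs scaled to 10000, 1 with no percentile filter on barcodes, 1 with classes by each nucleus's own markers, 1 with nuclei thinned to 1000 UMIs, 0 in males alone and 3 in females alone. In fibroblast-like nuclei it was 0, and 1 after thinning. With the unnamed cluster led by Aoah and Csf3r counted as myeloid-like, an alternative chosen after seeing the data, the median was -0.29 and the count 2. Ratios whose interval over all nuclei left out 0 and that changed sign or reached 0 were Ifngr2 in myeloid-like nuclei after thinning (0.00), Irf7 in myeloid-like nuclei of the male mice (1.19), summed type I targets in fibroblast-like nuclei of the male mice (0.03) and in parenchymal inhibitory-neuron-like nuclei after thinning (-0.18), and summed IFNγ targets in astrocyte-like nuclei of the male mice (0.65). Ratios whose interval held 0 also changed sign, such as Ifnar2 in myeloid-like nuclei by their own markers (0.04) or in fibroblast-like nuclei at finer clustering (0.14). The causes were not tested. Medians over the members crossed 0 under some alternative in fibroblast-like (-0.08 to 0.13), astrocyte-like (-0.54 to 0.32) and parenchymal excitatory (-0.06 to 0.07) and inhibitory neuron-like nuclei (-0.08 to 0.22), and in the comparisons of lesion with parenchyma (-0.15 to 0.27 and -0.29 to 0.63). Mouse, genotype and library cannot be told apart with 1 library per genotype, and Irf7 and all members in T cell-like or parenchymal glial nuclei are limited by depth.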

Other observations

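Clusters that fitted no marker list also carried the members. In the lesion, a cluster led by Tnn and the bone matrix gene Bglap (346 and 86 nuclei) held Ifngr1 at 96.4 (77.4 to 119) and 50.5 (25.2 to 90.3) CPM and Ifnar2 at 74.7 and 68.8, with 2 and 0 UMIs of Irf8. Its Ifngr1 level in the library labelled control was above the 25.6 CPM of fibroblast-like nuclei. A cluster led by the cell division gene Top2a (125 and 198 nuclei) held Ifnar2 at 176 (144 to 214) and 129 (107 to 154) CPM and Irf8 at 18.8 and 31.0. A cluster led by Aoah and Csf3r, in which 38.1% of nuclei held UMIs of both sexes, had Irf8 at 112 and 109 CPM, Ifnar2 at 169 and 173 and Stat2 at 116 and 99.4.

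Stat2 also differed between the female and the male mouse of the library labelled control. Stat2 stood at 168 and 80.4 CPM in lesional myeloid-like nuclei, at 143 and 79.5 in fibroblast-like nuclei and at 94.3 and 72.3 in astrocyte-like nuclei of the female and the male mouse, against 27.9 and 24.0 in parenchymal excitatory-neuron-like nuclei. In the library labelled Cxcl12-cKO the same levels were 101 and 68.3, 132 and 77.3, 55.7 and 56.7, and 26.7 and 25.6 CPM. Sex cannot be told apart from the individual mouse in either library, and these differences were not tested.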
